A study of Mus musculus with 4 samples.

Results

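The proteasome genes were described in mouse leukemic cells labelled as wild type or as knockout for the Polycomb enzyme Ezh2. They were chosen by name: every probe set of the array whose annotation gives 1 gene symbol, beginning with Psm followed by a letter from a to g and a digit. This found 103 of 45101 probe sets, for 49 of 18193 genes. They comprise 31 constitutive subunits of the 20S core and its 19S cap, 4 subunits known to be induced by interferon (Psmb8, Psmb9, Psmb10 and Psme1), the testis subunit Psma8, the thymic subunit Psmb11, and 12 assembly chaperones, activators, regulators and interacting proteins. Of these last, Psmc3ip, a meiotic recombination factor, and Psme3ip1 match by name only and encode no subunit. The probe set for Psme2 is annotated to a second gene as well and was therefore not used here.

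The cells came from the bone marrow of C57BL/6 mice given leukemic cells that carry the fusion MLL-AF9, and were purified before RNA extraction. There were 2 wild-type (WT) samples and 2 samples with the genotype entry Ezh2 KO, which the design text writes as Ezh2-/-, each on its own Affymetrix array. A further label entry conflicts with this genotype: it gives the recipients of the KO samples as repopulated with marrow lacking Ink4a and Arf, and those of the WT samples as repopulated with wild-type marrow. Age, the way Ezh2 was deleted, and whether the samples of a group are separate leukemias are not stated in the labels, so a p-value here covers the variation among these 4 samples alone, and that may be technical.

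The proteasome degrades proteins that carry ubiquitin. Its 20S core is a stack of 4 rings, in which the outer alpha rings gate the entrance and the inner beta rings hold the catalytic sites, and its 19S cap binds, unfolds and feeds in the substrate. Interferon induces replacement catalytic subunits, which exchange with their constitutive counterparts to form the immunoproteasome, and the PA28 activator; together they favour peptides that fit MHC class I molecules. Blood cells carry immunoproteasome subunits without added interferon.

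Each value is the linear intensity of a probe set, given as mean ± SD over 2 arrays. Changes are Ezh2 KO minus WT on the scale of log2(intensity + 16), so that a fold understates the change of a dim gene, and "lower" or "fell" means an adjusted p under 0.05 in limma. Log2 values of the 13916 genes tested correlated at 0.985 to 0.986 within the groups and 0.977 to 0.979 between them, a description of the arrays over genes that are not independent. The Ezh2 probe set itself read 5216 and 5315 in WT and 4989 and 4991 in KO (log2 change -0.08, limma adjusted p = 0.484). Its position against the deletion was not available from these sources, so it checks neither the deletion nor the labels. The markers of the leukemic myeloid cells were bright: all 10 were above the filter intensity of 19.96, and their summed intensity was 139183 to 139883 in WT and 132985 to 147872 in KO. Of the 10, the integrin gene Itgam rose from 1134 ± 48.7 to 1902 ± 126 (limma adjusted p = 0.000456) and the granule protease gene Ctsg fell from 33219 ± 240 to 27959 ± 1506 (adjusted p = 0.0363); their part in the proteasome changes was not tested.

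The log2 change of the proteasome genes was negative in nearly every case. It was -0.68 or beyond for Psma8, Psmb8, Psmb9 and Psmb10, and smaller in all other genes. Of the 48 genes above the filter, 45 had a negative log2 change, with a median of -0.17, where 49.1% of all genes tested were negative with a median of 0.007. In limma 11 of the 48 (22.9%) were lower, against a background of 6.01% of all genes, and 0 were higher, against 5.55%. At an unadjusted p under 0.05 there were 23 lower and 1 higher, where 3462 of all 13916 genes were changed in either direction. The KO arrays lay below the WT arrays without overlap in 38 of the 48 genes (79.2%), where 26.2% of all genes did so. Most of these genes had intensities above 1000, and among the 4493 genes with a mean intensity above 1000 the background was 11.1% lower, 37.7% without overlap below WT and 55.5% negative; of the 43 proteasome genes in that range, 9 were lower, 33 lay below WT without overlap and 40 were negative. The count of lower genes was 5 without WT replicate 1 (against 2.58% of all genes) and 6 when the probe sets of each gene were averaged, including dim ones (against 3.66%). With a single prior variance for all genes limma called 0 of the 48 and 0 of all genes. Then 8 of the 48 had an unadjusted p under 0.05, no larger a share than the 2595 of all 13916 genes.

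**Figure D1:**
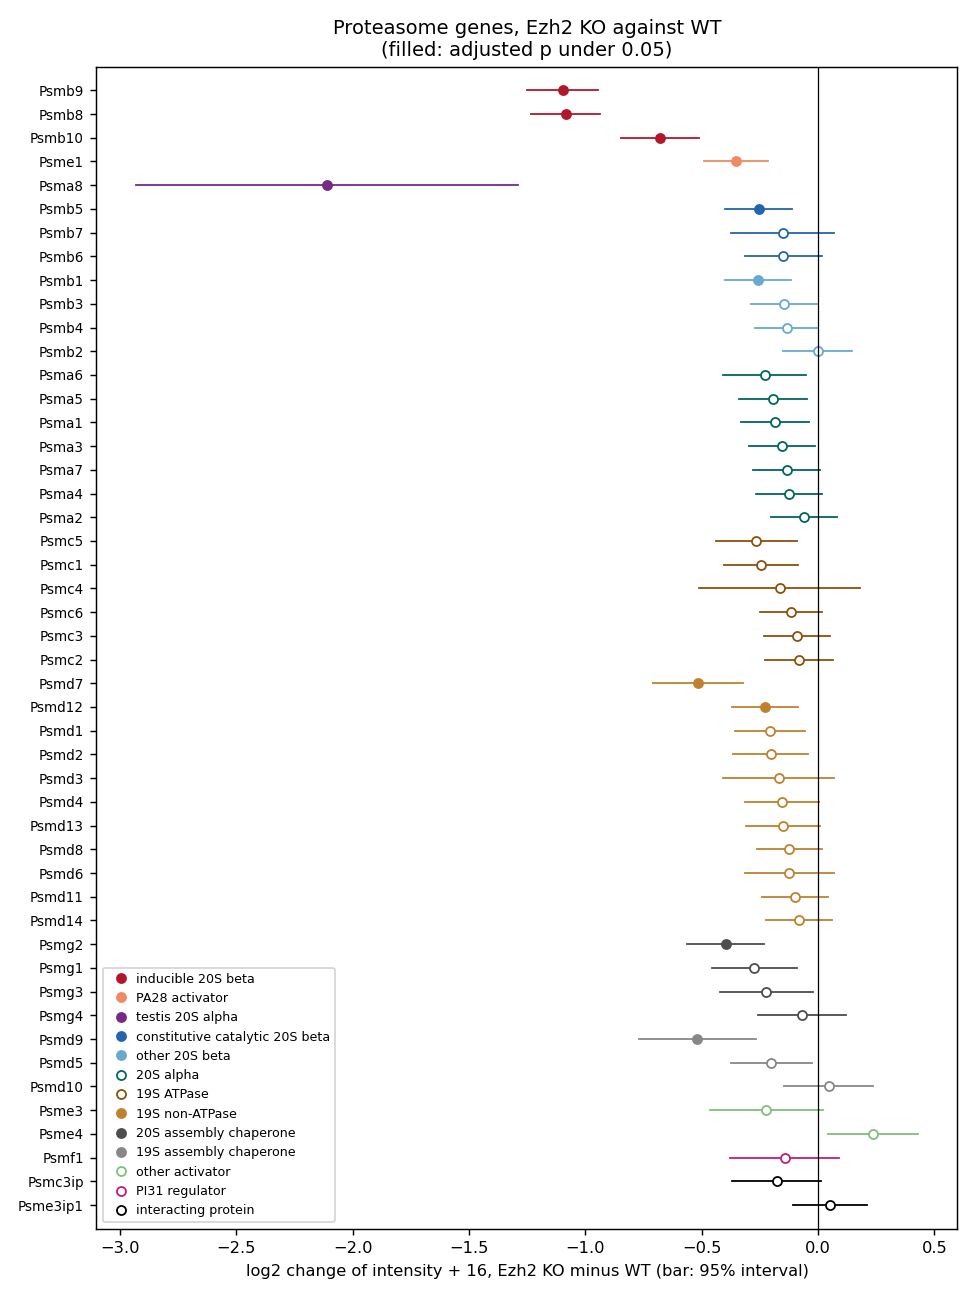
The log2 change of intensity + 16, Ezh2 KO minus WT, is plotted for each of the 48 proteasome genes above the filter, grouped by role, with its 95% limma interval; filled points had an adjusted p under 0.05. Psma8 (-2.11), Psmb8, Psmb9 and Psmb10 lie farthest to the left, followed by Psmd9 (-0.52), Psmd7 (-0.51), Psmg2 (-0.40) and Psme1 (-0.35), and nearly all others sit just below 0.

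The inducible subunits fell in all 4 cases tested. Psmb8, the chymotrypsin-like subunit that replaces Psmb5, had intensities of 5783 and 5417 in the WT arrays and 2568 and 2693 in the KO arrays. The groups did not overlap, and the fall from 5600 ± 259 to 2631 ± 87.9 was 2.12-fold (log2 change -1.08, SE 0.07, limma adjusted p = 1.27e-05). A second, dimmer probe set of Psmb8 read 234 and 341 in WT and 135 and 155 in KO, and it was also lower when each probe set was tested by itself (log2 change -0.89, limma adjusted p = 0.032).

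Psmb9, which replaces Psmb6, read 4197 and 3928 in WT and 1868 and 1910 in KO. Its groups did not overlap either, and the fall was 2.14-fold (log2 change -1.098, SE 0.07, limma adjusted p = 1.27e-05). Psmb10, which replaces Psmb7, read 3583 and 3196 in WT and 2073 and 2143 in KO, again without overlap. Its fall was smaller, at 1.60-fold (log2 change -0.68, SE 0.07, limma adjusted p = 0.000459), and its 95% interval of -0.85 to -0.51 does not reach those of Psmb8 (-1.23 to -0.94) and Psmb9 (-1.25 to -0.95).

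Psme1 encodes the alpha subunit of PA28, the activator that opens the 20S core. It read 8591 and 8848 in WT and 6634 and 7012 in KO. Its fall of 1.28-fold was the smallest of the inducible genes (log2 change -0.35, SE 0.06, limma adjusted p = 0.00554). The calls of Psmb8, Psmb9, Psmb10 and Psme1 were kept in each of the 14 other settings with a prior variance that follows intensity, in which the highest limma adjusted p was 0.0354, for Psme1 without WT replicate 2. With a single prior variance their limma adjusted p-values were 0.0705, 0.0689, 0.115 and 0.189.

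Psmb9 and Psmb8 lie in the MHC region of chromosome 17, in the gene order Psmb9, Tap1, Psmb8 and Tap2 of the RefSeq annotation. The upstream sequence of Psmb9 is shown because these neighbours moved together and because Psmb9 shares its promoter with Tap1, a subunit of the peptide transporter that carries proteasome products to MHC class I. It is the 250 bases before the RefSeq start in build GRCm38.p6, 5′ to 3′ on the strand of the gene. Capitals in Psmb9 (chr17:34187331-34187580, minus strand) mark a CCAAT box read on the other strand, and the start of Tap1, on the plus strand, lies 226 bases from that of Psmb9, inside the sequence shown.
Psmb9: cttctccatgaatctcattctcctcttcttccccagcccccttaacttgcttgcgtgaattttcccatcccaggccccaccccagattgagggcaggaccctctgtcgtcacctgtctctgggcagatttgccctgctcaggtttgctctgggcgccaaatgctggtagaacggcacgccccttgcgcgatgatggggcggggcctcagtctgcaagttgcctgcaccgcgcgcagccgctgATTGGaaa

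In Psme1 a match to the interferon-stimulated response element core GAAANNGAAA lies from 10 to 19 bases after the start, on the other strand. It is shown in capitals in the first 30 bases of the transcript (chr14:55578494-55578523, plus strand, GRCm38.p6).
Psme1: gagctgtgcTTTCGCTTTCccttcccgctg

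Each replacement subunit was then set against the subunit it displaces. Levels of different probe sets cannot be compared, but the log2 ratio of a pair within an array can be compared between groups. The ratio of Psmb8 to Psmb5 was 0.17 and 0.10 in WT and -0.68 and -0.71 in KO, a shift of -0.83. That of Psmb9 to Psmb6 was 0.22 and 0.28 in WT and -0.74 and -0.66 in KO, a shift of -0.95. In these pairs the shift was far larger than the spread between arrays of a group, whose SDs were 0.02 to 0.05. The ratio of Psmb10 to Psmb7 was 1.44 and 1.12 in WT and 0.62 and 0.90 in KO, a shift of -0.53 with SDs of 0.23 and 0.20. All of these ratios were lower on each KO array than on each WT array. The exact two-sided permutation test gave p = 0.333 for each of the 4 pairs compared (the 3 above, and Psma8 with Psma7), unchanged by adjustment over the pairs, which is the smallest value that 2 arrays against 2 allow.

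**Figure D2:**
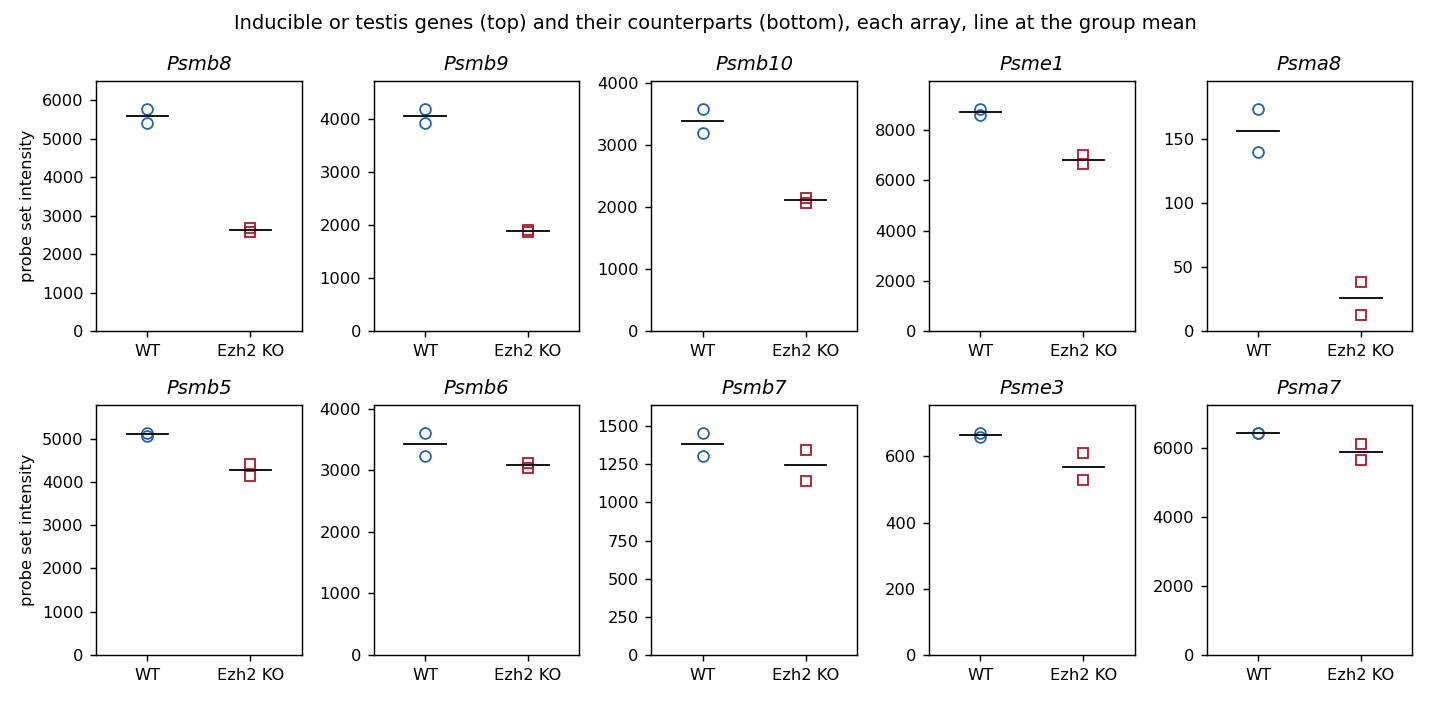
Probe set intensity on each array (linear axes from 0, circles WT, squares Ezh2 KO, line at the mean of 2 arrays) is shown for the inducible genes and Psma8 in the top row and for their counterparts in the bottom row, with Psme3, the third PA28 gene, under Psme1. The groups separate widely for Psmb8, Psmb9, Psmb10 and Psma8, whereas Psmb7 overlaps between groups (1308 and 1459 in WT, 1347 and 1144 in KO).

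The displaced catalytic subunits moved little. Psmb5, the constitutive chymotrypsin-like subunit, read 5138 and 5056 in WT and 4124 and 4420 in KO. It fell 1.19-fold (log2 change -0.25, SE 0.06, limma adjusted p = 0.0311). That call was lost without WT replicate 1 (adjusted p = 0.133), without WT replicate 2 (0.0855), without KO replicate 1 (0.132) or with no filter on low values (0.0538). Psmb6, the caspase-like subunit, read 3611 and 3224 in WT and 3124 and 3031 in KO, with a log2 change of -0.15 that did not pass (95% interval -0.31 to 0.02, limma adjusted p = 0.248). Psmb7, the trypsin-like subunit, likewise did not pass at -0.15 (-0.37 to 0.07, limma adjusted p = 0.394). Its interval does not reach that of Psmb10, nor do those of Psmb5 and Psmb6 reach those of Psmb8 and Psmb9.

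Over the 4 inducible genes the median log2 change was -0.88, and over the 31 constitutive subunits it was -0.15, a difference of -0.73. The difference ran from -0.79 to -0.66 when each array was left out in turn. All settings that changed the normalization, filter, pseudocount or probe sets left it between -0.75 and -0.70.

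**Figure D3:**
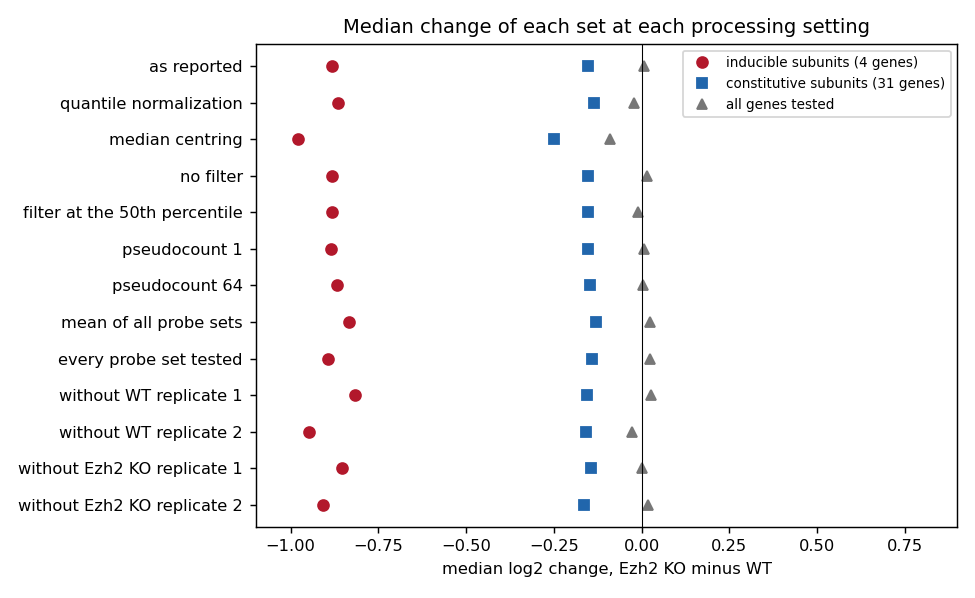
Median log2 change, Ezh2 KO minus WT, of the inducible subunits, the constitutive subunits and all genes tested at each processing setting (where every probe set was tested, the points are medians over probe sets). The inducible median stays between -0.98 and -0.82 and the constitutive median between -0.25 and -0.13, each below that of all genes.

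Psma8, the alpha subunit that takes the place of Psma7 in proteasomes of the testis, had the largest fall of the proteasome genes. Its only probe set read 174 and 140 in WT and 12.97 and 38.6 in KO. The groups were far apart, and the fall was 4.32-fold (log2 change -2.11, SE 0.37, limma adjusted p = 0.00554). However, the first KO array lay below the filter intensity of 19.96, which is a percentile and not a measure of background. A reading so low may not be distinct from background, which was not measured. The call was lost without WT replicate 1 (log2 change -1.97, limma adjusted p = 0.0612). The change also depended on the pseudocount, with -2.74 at a pseudocount of 1 and -1.31 at 64. Its counterpart Psma7 read 6458 and 6440 in WT and 5648 and 6113 in KO, and did not pass (log2 change -0.13, 95% interval -0.28 to 0.01, limma adjusted p = 0.234). The log2 ratio of Psma8 to Psma7 shifted by -1.98, from -5.09 and -5.37 in WT to -7.61 and -6.81 in KO. Of 6 germ cell markers, 4 were above the filter; the meiotic recombinase Dmc1 fell from 352 ± 71.7 to 152 ± 65.7 (limma adjusted p = 0.019), while Ddx4, Dazl and Sycp3 averaged 71.5 or less in each group and did not pass, and Sycp1 and Tex11 were below the filter. The summed intensity of the 6 was 439 to 513 in WT and 244 to 302 in KO; its part in the change of Psma8 was not tested. Psmc3ip, whose protein assists Dmc1 in strand exchange, read 1011 and 1086 in WT and 918 and 932 in KO and did not pass (log2 change -0.18, limma adjusted p = 0.239).

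Among the constitutive 20S subunits, all 14 had a negative log2 change (13 with quantile normalization, where Psmb2 was at 0.02). Of the 14, 2 were lower (14.3%), beside 11.1% of all genes above an intensity of 1000. These were Psmb5, above, and Psmb1, a structural beta subunit, which read 6755 and 6850 in WT and 5473 and 5904 in KO. Psmb1 fell 1.20-fold (log2 change -0.26, SE 0.06, limma adjusted p = 0.0288), a call lost without WT replicate 1 (adjusted p = 0.104), WT replicate 2 (0.104) or KO replicate 1 (0.122), with no filter (0.0559) and with averaged probe sets (0.0736). The alpha ring subunits ran from -0.23 for Psma6 to -0.06 for Psma2. None of these 7 passed in limma, and 4 had an unadjusted p under 0.05, beside 3462 of all 13916 genes. In 6 of the 7 (85.7%) the KO arrays lay below both WT arrays, beside 37.7% of all genes above an intensity of 1000. Psma6 read 14234 and 14200 in WT and 13188 and 11156 in KO (limma adjusted p = 0.101), and it was lower without KO replicate 1 (log2 change -0.35, adjusted p = 0.00088).

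The other beta subunits, Psmb2, Psmb3 and Psmb4, did not pass. Psmb2 was level, at 3653 and 3606 in WT and 3484 and 3770 in KO (log2 change -0.002, 95% interval -0.15 to 0.15). The probe sets of Psmb3 differed: the one of highest mean read 4673 and 4804 in WT and 4409 and 4162 in KO and did not pass (log2 change -0.15, limma adjusted p = 0.191). The other read 5063 and 4881 in WT and 4095 and 4054 in KO, and was lower when every probe set was tested (log2 change -0.29, limma adjusted p = 0.0253).

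All 17 subunits of the 19S cap also had a negative change, with a median of -0.16. Of the 17, 2 were lower (11.8%), near the 11.1% of all genes above an intensity of 1000. Psmd7, the partner of the deubiquitinase Psmd14 in the lid, read 1775 and 1774 in WT and 1150 and 1331 in KO. Its fall of 1.43-fold was the largest of the constitutive subunits (log2 change -0.51, SE 0.09, limma adjusted p = 0.00455). Its other 2 probe sets were dim, one at 241 and 176 in WT and 207 and 181 in KO and one below the filter, and averaging the 3 gave -0.13 (adjusted p = 0.779). Psmd14 itself read 8472 and 8011 in WT and 7992 and 7576 in KO and did not pass (log2 change -0.08, limma adjusted p = 0.484).

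The other lower 19S subunit was Psmd12, a scaffold of the lid. It read 3127 and 3092 in WT and 2652 and 2653 in KO, without overlap, and fell 1.17-fold (log2 change -0.23, SE 0.06, limma adjusted p = 0.0469). This call lay at the threshold and was lost when any of the arrays was left out (adjusted p 0.106 to 0.156), under quantile normalization (0.0606), median centring (0.0546), no filter (0.0596) or averaged probe sets (0.0511), and when every probe set was tested (0.0705).

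The 6 ATPases that drive unfolding did not pass in limma, with changes from -0.27 for Psmc5 to -0.08 for Psmc2. Of these 6, Psmc1 and Psmc5 had an unadjusted p under 0.05, as did 3462 of all 13916 genes. Psmc5 read 2491 and 2485 in WT and 1943 and 2200 in KO and was close to the threshold (limma adjusted p = 0.0552). It was lower without KO replicate 2 (log2 change -0.35, adjusted p = 0.00567), with median centring (adjusted p = 0.0494) and with the filter at the 50th percentile (0.0417). Psmc2 read 8333 and 9028 in WT and 8003 and 8369 in KO, and these groups overlapped.

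Taking the 31 constitutive subunits as a set, 4 were lower (12.9%), near the 11.1% of all genes above an intensity of 1000. The set differed from the background in its direction. All 31 were negative, beside 55.5% of all genes above an intensity of 1000. The count was 30 with quantile normalization, 31 with median centring, 26 with averaged probe sets and 29 to 31 with an array left out. In 24 (77.4%) the KO arrays lay below the WT arrays without overlap, beside 37.7% of all genes above 1000. The median of the set minus that of all genes tested was -0.16, and was -0.11 with quantile normalization. Median centring shifts all genes alike, so it leaves this difference at -0.16. Genes above an intensity of 1000 had a median of -0.03, nearer to the -0.15 of the set. No test was made of the set.

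**Figure D4:**
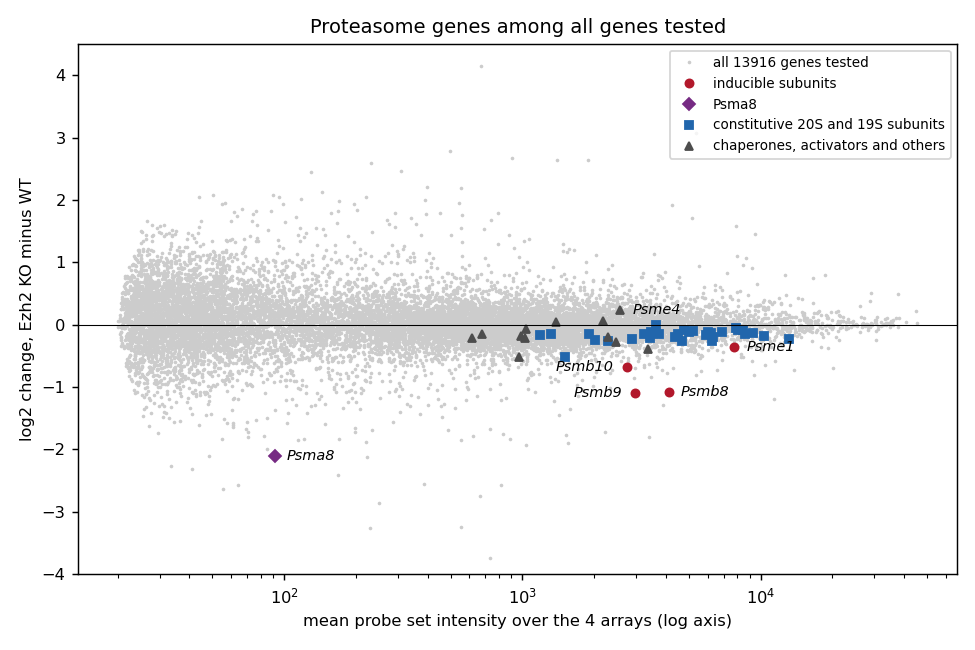
The log2 change of each gene, Ezh2 KO minus WT, is plotted against its mean intensity over the 4 arrays (log axis) for all 13916 genes tested in grey, with the proteasome genes in colour. The constitutive subunits (blue squares) form a tight band just under 0 at high intensity, and Psmb8, Psmb9 and Psmb10 lie below most genes of like intensity, at -1.08, -1.098 and -0.68.

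The chaperones that assemble the proteasome gave a further pair of lower genes. Psmd9, which helps build the base of the 19S cap, read 1267 and 1027 in WT and 753 and 832 in KO. It fell 1.43-fold (log2 change -0.52, SE 0.11, limma adjusted p = 0.0161), a call lost without WT replicate 1 (-0.37, adjusted p = 0.11) and with averaged probe sets (-0.26, adjusted p = 0.446), its other probe sets being dim. The other chaperones of the 19S base, Psmd5 and Psmd10 (gankyrin), had changes of -0.20 and 0.05 and did not pass. The change of Psmd10 was -0.05 with median centring.

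Psmg2 forms a heterodimer with Psmg1 that starts the alpha ring. It read 3977 and 3675 in WT and 2760 and 3045 in KO, and fell 1.32-fold (log2 change -0.40, SE 0.07, limma adjusted p = 0.00792). A second bright probe set of Psmg2 read 2809 and 3186 in WT and 2529 and 2825 in KO, which overlapped, and it did not pass when every probe set was tested (log2 change -0.16, adjusted p = 0.328). The call was lost with averaged probe sets (-0.25, adjusted p = 0.127) and without WT replicate 1 (-0.34, adjusted p = 0.0698). Psmg1 read 2885 and 2541 in WT and 2145 and 2333 in KO, close to the threshold (log2 change -0.27, limma adjusted p = 0.0604), and Psmg3 and Psmg4 had -0.22 and -0.07.

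Of the activators outside the inducible PA28 pair, Psme4 (PA200), a nuclear activator, was the only proteasome gene above the filter whose KO arrays both lay above the WT arrays. It read 2243 and 2466 in WT and 2577 and 2990 in KO, and did not pass (log2 change 0.24, 95% interval 0.04 to 0.43, limma adjusted p = 0.115). All 6 probe sets of Psme4 were above the filter. Each had a positive change (0.08 to 0.41), and none passed when every probe set was tested. Psme4 was higher without KO replicate 1 (log2 change 0.34) and with the replicate number as a block (limma adjusted p = 0.00987). Psme3, which forms the nuclear PA28 gamma ring, went the other way at 672 and 658 in WT and 528 and 610 in KO (log2 change -0.22, 95% interval -0.47 to 0.02, limma adjusted p = 0.246). Psmf1, the regulator PI31, had -0.14 (limma adjusted p = 0.454; 0.05 with averaged probe sets). Psme3ip1, which binds PA28 gamma, had 0.05 (adjusted p = 0.724), and -0.04 with median centring. The thymic subunit Psmb11 read 2.97 and 4.70 in WT and 5.12 and 7.08 in KO, below the filter, and was not tested.

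Beyond the probe set that stood for each gene, 44 further proteasome probe sets were above the filter, and 29 of them had a negative change. Only 2 of the 44 were lower, the second ones of Psmb8 and Psmb3, and 0 were higher (limma, every probe set tested, in which 3.89% of all probe sets were lower and 4.03% higher). A total of 11 proteasome probe sets were below the filter.

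Genes that work with the proteasome were then read from lists. Of 10 associated factors tested, 3 were lower (30%) and 1 higher, beside 6.01% and 5.55% of all genes. Most of the 10 had intensities above 1000, where 11.1% of all genes were lower. Their median log2 change was -0.07, with 6 of 10 changes negative. The proteasome-bound deubiquitinase Usp14 fell from 3727 ± 187 to 2807 ± 157 (1.33-fold, limma adjusted p = 0.00572; 0.367 with averaged probe sets). The adaptor Ecpas (Ecm29) fell 1.20-fold (adjusted p = 0.0247) and Txnl1, a thioredoxin-like protein of the 19S cap, 1.19-fold (adjusted p = 0.0292). Both of these calls were lost without WT replicate 1 (0.106 and 0.118), without WT replicate 2 (0.0772 and 0.0923) or with averaged probe sets (0.594 and 0.71); that of Ecpas was also lost without KO replicate 2 (0.063), and that of Txnl1 without KO replicate 1 (0.124) or with no filter (0.0586). Zfand5, a zinc finger protein that stimulates the proteasome, rose 1.34-fold from 3113 ± 82.0 to 4176 ± 141 (adjusted p = 0.0028; this was 0.0638 after median centring and 0.588 with averaged probe sets). The maturation factor Pomp had -0.14 (limma adjusted p = 0.191).

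Of 8 genes for ubiquitin activation and shuttle receptors, 0 passed in limma (beside 11.6% of all genes), with a median of 0.003. An unadjusted p under 0.05 was seen in 2 (Rad23b at -0.22, Ubqln1 at 0.15), and in 3462 of all 13916 genes. Of 6 transcription factors known to drive the constitutive genes, 0 passed in limma, beside 11.6% of all genes. An unadjusted p under 0.05 was seen in 0 of the 6, beside 3462 of all 13916 genes. These 6 genes are too few to set such counts apart from the shares over all genes. Among the 6 factors Nfe2l1 (Nrf1), which restores proteasome synthesis when degradation is blocked, read 631 and 679 in WT and 610 and 577 in KO (log2 change -0.14, limma adjusted p = 0.462). Nfe2l2 (Nrf2) read 1814 and 1785 in WT and 1933 and 2087 in KO (log2 change 0.16, adjusted p = 0.218).

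The regulators of the inducible genes included larger changes. Of 10 tested, 4 were lower (40%, beside 6.01% of all genes) and 1 higher (beside 5.55%). Nlrc5, which switches on class I genes, read 462 and 445 in WT and 41.8 and 56.5 in KO (log2 change -2.86, limma adjusted p = 3.27e-05). Irf1, which binds the shared promoter of Psmb9 and Tap1, read 1318 and 1377 in WT and 910 and 966 in KO, a fall of 1.43-fold (adjusted p = 0.00352). Irf8, a myeloid member of the same family, fell 1.48-fold from 2050 ± 50.4 to 1378 ± 11.02 (adjusted p = 0.00097). Irf9 fell 1.26-fold (limma adjusted p = 0.0452) and the kinase gene Jak2 rose 1.23-fold (adjusted p = 0.0365). Each of these 2 calls was lost when any array was left out. The log2 change then ran from -0.35 to -0.31 for Irf9 and from 0.27 to 0.32 for Jak2. Both calls were also lost when every probe set was tested (limma adjusted p = 0.0654 and 0.0568). That of Irf9 was lost with no filter (0.06), and that of Jak2 with median centring (0.292) and averaged probe sets (0.201). The interferon gamma receptor gene Ifngr1 was level, at 5973 and 5886 in WT and 5881 and 5875 in KO (log2 change -0.01).

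The class I genes that take up the products of the immunoproteasome fell with the inducible subunits. Of 6 tested, 5 were lower (83.3%), with a median log2 change of -0.70. The background was 6.01% of all genes, and 11.1% of those above an intensity of 1000, where most of the 6 lay. Tap1 read 1381 and 1460 in WT and 652 and 727 in KO, a fall of 2.04-fold beside the 2.14-fold of Psmb9, with which it shares a promoter (adjusted p = 0.00011; log2 change -0.18 and adjusted p = 0.767 with averaged probe sets). Tap2 fell 1.70-fold (adjusted p = 0.000164), the trimming peptidase Erap1 1.64-fold, B2m, the class I light chain, 1.61-fold, and Tapbp 1.22-fold (adjusted p = 0.0175; 0.0502 without WT replicate 1, 0.0881 without WT replicate 2 and 0.0635 with averaged probe sets). The peptidase Lap3 did not pass (log2 change -0.37, limma adjusted p = 0.0627).

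Markers of other marrow cells were read beside these changes. Of 8 macrophage markers, 5 were above the filter and 1, Vcam1, was lower, from 5293 ± 673 to 1509 ± 97.6 (limma adjusted p = 4.3e-06). The summed intensity of the 8 was 6475 to 7451 in WT and 2875 to 3258 in KO, almost all of it from Vcam1 and Adgre1, and its part in the fall of the inducible subunits was not tested. Adgre1 (F4/80) averaged 1594 and 1454 and did not pass, C1qb, Mertk and Spic averaged 36.8 or less in each group, and C1qa, C1qc and Cd163 were below the filter. Of the markers of dendritic, T, NK and B cells, erythroid cells, megakaryocytes and stroma, 0 of the 19 above the filter passed in limma. Over all genes 11.6% passed. At an unadjusted p under 0.05 there was 1 of the 19 (Gp9, at 0.77), beside 3462 of all 13916 genes. Most of these markers were dim and had wide intervals, so changes in them could be missed. In these bulk samples fewer cells of a type and less RNA per cell cannot be told apart.

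The promoter windows of RefSeq (250 bases before to 50 after the start, GRCm38.p6) matched 41 of the 49 genes, with 44 windows, and are described here for 3 motifs searched on both strands. The interferon-stimulated response element core GAAANNGAAA was in 5 of the 44 windows (11.4%), those of Psme1, Psmb3, Psmd4, Psmd9 and Psmg4, and in 3.44% of all 32851 windows. The antioxidant response element core TGACNNNGC, the form of site read by Nfe2l1 and Nfe2l2, was in 6 (13.6%), those of Psmb5, Psmb6, Psmc6, Psmd9, Psmd12 and Psme4, and in 12.4% of all. The CCAAT box was in 16 (36.4%), Psmb9 among them, and in 37.4% of all. The window of Psmb10 held none of these letters. A match describes the sequence and does not show that a factor binds there.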

How the data were processed

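The authors deposited 1 linear intensity per probe set and array. The submitters' processing notes name Affymetrix Expression Console; its version and summary algorithm are not given in the sources used here. Each array had a mean of 500 after trimming 2% at each end, read from the values, so a difference in total mRNA per cell cannot be seen. The number of arrays limits the precision.

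Groups came from the sample titles. Of 45101 probe sets, 64 were controls, 34945 had 1 gene symbol in the platform annotation and 932 more than 1, and the table of genes lacked 9160; 34741 matched RefSeq by gene identifier, which changed 0 symbols. For each gene the probe set with the highest mean log2 value was taken, and 13916 genes above the 30th percentile (intensity 19.96) were tested.

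Log2(intensity + 16) was fitted with lmFit and eBayes of limma 3.58.1 (R 4.3.3), with a prior variance following intensity, and p-values were adjusted by Benjamini-Hochberg over all genes tested, at 0.05. Intervals are 95%. The fit was run on data simulated from its own variance model, which does not test whether that model suits these arrays. Python 3.11.15 and matplotlib 3.10.9 drew the figures.

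The members and gene lists were chosen with earlier results of these data known. The genes named were the inducible subunits, Psma8 and their counterparts, every member that passed, the extremes of each role without one, and list members that passed; other members are named after their values were seen. Alternatives were other normalizations, filters, pseudocounts, probe set rules and priors, the replicate number as a block, and leaving out each array, where the lone array is taken to vary like the other group. The result for 1 further promoter motif is not reported here.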

Additional observations from a re-analysis of the deposited data

How the results depend on the processing

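Against 1608 genes changed in all and 11 proteasome genes lower, averaging probe sets gave 958 and 6, a single prior variance 0 and 0 (2595 genes, 8 of them proteasome genes, at an unadjusted limma p under 0.05), and leaving out each array in turn 831 to 1641 and 5 to 16. Proteasome genes called higher numbered 0 in the reported fit and 0 to 1 with 1 array left out. Titles number the arrays of each group 1 and 2. Deviations of same-numbered arrays correlated at 0.0409 over genes. With 1 such deviation per group, this cannot exclude a pairing that touches some of the genes. The replicate block, which leaves 1 residual degree of freedom, gave 2719 genes changed, with 20 proteasome genes lower and 1 higher. A negative change was seen in 74 of 92 probe sets when each was tested, in place of 45 of 48 genes, a count chosen after seeing the data and tested at the same settings; with 1 array left out it was 43 to 46.

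The difference between the inducible and constitutive medians was -0.79 to -0.66 with 1 array left out, against -0.73. The ratio shift of Psmb8 to Psmb5 was -0.735 with averaged probe sets, against -0.83, and that of Psma8 to Psma7 was -2.60 with a pseudocount of 1 and -1.18 with 64, against -1.98; the latter follows from the low intensity of Psma8. With 1 array left out, a setting added for these ratios after seeing the data, Psmb10 to Psmb7 ranged from -0.69 to -0.37. Signs also turned, without passing, for changes near 0, among them Psmc2 (0.0317) and Psmf1 (0.0515) with averaged probe sets, where 39 of 48 genes were negative, Psme3ip1 (-0.0445) and Psmd10 (-0.05) with median centring, and Psmb2 (0.02) with quantile normalization. Except where a clause above says otherwise, the cause was not tested. Ratio shifts were not run for every probe set tested, which gives no single pair. Over all genes the median log2 change was 0.007, and -0.09 after median centring. Psma8 and Psmb11 are limited by low signal, which may be near background.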
